A study of Mus musculus with 16 samples.

Results

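The kinesin genes of the mouse oocyte were taken as all genes of the RNA-seq table whose symbol begins with Kif followed by a digit or by the letter c, a rule that uses no measured value. It gave 42 members among 25965 genes. By the textbook role of their proteins, 15 were grouped as spindle and cytokinesis motors, 17 as transport motors and 9 as motors of cilia, of signalling or of other functions, and 1 member, the pseudogene Kif4-ps, was placed in no group. The oocytes came from wild-type C57BL/6 mice, given as C57BL/6Babr in the study's methods, and were picked by hand after enzymatic digestion of the ovary. RNA-seq libraries in duplicate (A and B) were made from oocytes of 4 classes of diameter (10–30 μm, then 40–45 μm, 50–55 μm and lastly 60–65 μm), and 1 library was made from germinal vesicle (GV) oocytes, which are fully grown and still arrested in meiosis. DNA methylation was measured from 40–45 μm onwards by reduced representation bisulphite sequencing (RRBS, 2 libraries for each of 3 classes, enriched for CpG-rich sequence), and at 60–65 μm also by whole-genome bisulphite sequencing with adaptor tagging after conversion (PBAT, 1 library). No group carried a mutation or a treatment. The mice were 5 to 7 days old for the 10–30 μm class, 7 to 12 for 40–45 μm, 9 to 14 for 50–55 μm, 13 to 16 for 60–65 μm and 20 for GV oocytes, so that size and age cannot be told apart. Each library pools oocytes, and nothing in the labels says that replicates came from separate animals, so that the p-values measure the spread between these libraries, which may be technical.

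Kinesins are motor proteins that use ATP to move along microtubules or to take their ends apart. Spindle motors slide, bundle and shorten microtubules, move chromosomes and build the midzone on which cytokinesis depends, whereas transport motors carry vesicles, organelles and RNA through the cytoplasm. The growing oocyte does not divide. It is held in prophase of the first meiotic division while it stores RNA and protein, and it forms a spindle only after the germinal vesicle has broken down.

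Levels are given as deposited, in RPKM, that is, reads per kilobase of exon scaled to the total of counted reads, so that genes can be compared per length. The growing oocyte gains RNA as it enlarges, and RPKM measures a gene against the rest of its library, not per cell. In such bulk samples fewer cells of a type and less RNA per cell cannot be told apart. Reads were recovered from the RPKM values as whole numbers for 20275 of the 20278 genes above 0, and the libraries held 26829977 to 59585739 reads in these genes. A gene was tested if it reached 0.5 RPKM in at least 2 of the 8 libraries of growing oocytes, which 10518 genes and 30 of the 42 kinesins did. Log2 differences and their SE come from limma on libraries scaled for composition, and adjusted p-values (Benjamini-Hochberg, over all 10518 genes, threshold 0.05) from the same fit. The oocyte markers Zp3 and Gdf9 stood at 595 to 962 and 419 to 580 RPKM in growing oocytes. The summed level of the granulosa cell markers (3 of 12 tested, all 3 higher at 60–65 μm) was 2.16 and 2.57 RPKM at 10–30 μm and 7.90 and 7.27 RPKM at 60–65 μm, with Foxl2 at 0.0145 to 0.0642 RPKM, whereas that of the theca and stroma markers (2 of 7 tested, both lower) was 2.84 and 2.06 RPKM, then 0.883 and 0.875 RPKM. The blood, immune and endothelial markers (1 of 5 tested, Pecam1, higher) summed to 0.741 to 5.08 RPKM in growing oocytes, with Ptprc at or below 0.00823 RPKM. The motile cilium and neuron markers (1 of 4 tested, Tubb3, higher) summed to 16.3 to 50.3 RPKM, nearly all of it Tubb3. The part of these markers in the results was not tested.

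The levels of the 42 members spanned a wide range. Over the 8 libraries of growing oocytes, 8 members had a mean of at least 10 RPKM, 16 lay from 1 to 10 RPKM, 11 from 0.1 to 1 RPKM and 7 below 0.1 RPKM. Of the 8 highest, 7 were spindle motors and 1, Kif17, was a transport motor. The median level was 8.85 RPKM for the spindle group, 1.08 RPKM for the transport group and 0.251 RPKM for the remaining group. The 5 highest members (Kif4, Kif23, Kif22, Kif17 and Kif2c) held 53.9 to 57.7% of the summed kinesin RPKM of a library. The spindle group held 74.4 to 78.1% of that sum, the transport group 19.8 to 23.1% and the third group 2 to 2.54%. The sum over all members was 259 and 268 RPKM at 10–30 μm, 264 and 276 RPKM at 40–45 μm, 266 and 275 RPKM at 50–55 μm, 257 and 260 RPKM at 60–65 μm and 257 RPKM in GV oocytes. The libraries of the first and the last class overlapped in this sum. Within it, Kif4 held 25.8 and 26.1% at 10–30 μm, 14.8 and 17% at 60–65 μm and 13.9% in GV oocytes, whereas Kif23 held 7.56 and 7.8%, then 14.2 and 14.8%, and 16.9%.

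Promoter sequences of the members were read beside their levels. RefSeq promoter windows (GRCm38.p6, 250 bases before to 50 bases after a start) matched 33 of the 42 members, all but Kif5a, Kif5b, Kif13b, Kif19a, Kif20a, Kif21b, Kifc2, Kifc3 and Kif4-ps. Those of 5 members are shown because they are the 2 highest spindle motors, which moved in opposite directions (Kif4 and Kif23), the motor that separates the spindle poles (Kif11), the transport motor with the largest fall (Kif21a) and the one with the highest level (Kif17). The RefSeq start of Kif17 lies 11816 bp downstream of the start given in the expression table, and that of Kif4 328 bp downstream. Capitals mark every copy, on either strand, of the motifs CCAAT and TTTGAA, the first being the letters of the box named after it and the second those of an element known from promoters of cell cycle genes. The copies of the motifs do not overlap in these windows.
Kif23 chr9:61946750-61947049 (- strand): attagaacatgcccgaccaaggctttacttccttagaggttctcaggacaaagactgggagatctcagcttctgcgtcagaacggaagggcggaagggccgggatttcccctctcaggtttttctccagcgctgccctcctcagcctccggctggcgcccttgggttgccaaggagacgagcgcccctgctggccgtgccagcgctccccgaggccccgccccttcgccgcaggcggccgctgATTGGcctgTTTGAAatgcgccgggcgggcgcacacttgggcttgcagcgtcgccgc
Kif4 chrX:100625815-100626114 (+ strand): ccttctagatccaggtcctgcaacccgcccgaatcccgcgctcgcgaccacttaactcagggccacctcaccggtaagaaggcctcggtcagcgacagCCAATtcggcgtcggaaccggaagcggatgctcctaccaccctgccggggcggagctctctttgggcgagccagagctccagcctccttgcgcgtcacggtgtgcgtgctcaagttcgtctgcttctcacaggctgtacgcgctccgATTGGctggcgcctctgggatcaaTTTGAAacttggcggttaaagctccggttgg
Kif11 chr19:37376132-37376431 (+ strand): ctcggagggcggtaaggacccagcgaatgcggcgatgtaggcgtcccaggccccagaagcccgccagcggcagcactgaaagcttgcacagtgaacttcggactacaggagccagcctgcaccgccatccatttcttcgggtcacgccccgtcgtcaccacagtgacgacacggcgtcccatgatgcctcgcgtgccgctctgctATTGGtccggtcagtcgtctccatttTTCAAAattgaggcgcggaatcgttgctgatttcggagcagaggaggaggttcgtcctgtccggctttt
Kif21a chr15:91049902-91050201 (- strand): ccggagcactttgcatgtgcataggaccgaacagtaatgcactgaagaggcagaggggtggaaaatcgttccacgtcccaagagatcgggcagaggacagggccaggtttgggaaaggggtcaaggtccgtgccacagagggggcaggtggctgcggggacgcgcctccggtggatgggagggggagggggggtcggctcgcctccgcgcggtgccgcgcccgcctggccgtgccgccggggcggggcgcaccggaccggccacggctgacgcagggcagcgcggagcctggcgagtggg
Kif17 chr4:138262001-138262300 (+ strand): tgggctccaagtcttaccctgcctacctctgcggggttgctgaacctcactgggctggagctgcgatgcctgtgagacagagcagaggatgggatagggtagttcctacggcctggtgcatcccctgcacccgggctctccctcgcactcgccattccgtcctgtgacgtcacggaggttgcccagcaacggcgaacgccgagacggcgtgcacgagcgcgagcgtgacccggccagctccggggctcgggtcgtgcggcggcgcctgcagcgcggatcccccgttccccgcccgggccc
The Kif23 and Kif11 windows hold 1 copy of each motif, the Kif4 window holds 2 of the first and 1 of the second, and the Kif21a and Kif17 windows hold neither. Among all genes of the promoter table, 41.1% hold CCAAT in at least 1 window and 20.2% hold the cell cycle element. That element was found for 11 of 14 spindle motors with a window (78.6%), 1 of 11 transport motors (9.09%) and 2 of 8 motors of the third group (25%). The match of the transport group, in Kif1a, lies in a window whose start is 19385 bp downstream of the start in the expression table, and the other Kif1a window, near that start, holds none. The match of the spindle motor Kif2c lies in a window 3867 bp downstream of its table start. The box was found for 9 of 14, 3 of 11 and 4 of 8, and both motifs for 8 of 14, 0 of 11 and 2 of 8, against 8.97% of all genes. A match is a run of letters only. Windows of all 5 genes shown are rich in CpG, with 25 to 31 each, against a median of 8 per gene over the promoter table. They are near the median of 26 over the 33 kinesins with a window.

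Over the whole of growth, from 10–30 to 60–65 μm, 8 kinesin genes rose, 9 fell and 13 did not pass the test. The same test called 32.4% of all genes higher and 30.9% lower, so that 8 and 9 of 30 are shares near the background. With a filter of 2 RPKM the counts were 5 and 5, against 2456 and 2128 of the 7235 genes tested with that filter. The count of rises was also lower without replicate A of 60–65 μm, as was the count of rises over all genes. The median log2 difference was 0.06 over the 30 kinesins and 0.02 over all genes tested. The groups of libraries did not overlap in RPKM for 23 of the 30, against 82.1% of all genes tested. Of 14 tested spindle motors 2 rose and 3 fell, of 12 tested transport motors 5 rose and 4 fell, and of 4 tested members of the third group 1 rose and 2 fell. The median log2 difference was 0.06 for the spindle group and 0.11 for the transport group, a difference of -0.06 that ranged from -0.26 to 0.09 when 1 library at a time was left out and so changed sign. Among the 4 size classes together, the moderated F test of limma called 18 of the 30 kinesins, namely 6 of 14 spindle motors, 9 of 12 transport motors and 3 of 4 of the third group, against 54.8% of all genes.

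**Figure D1:**
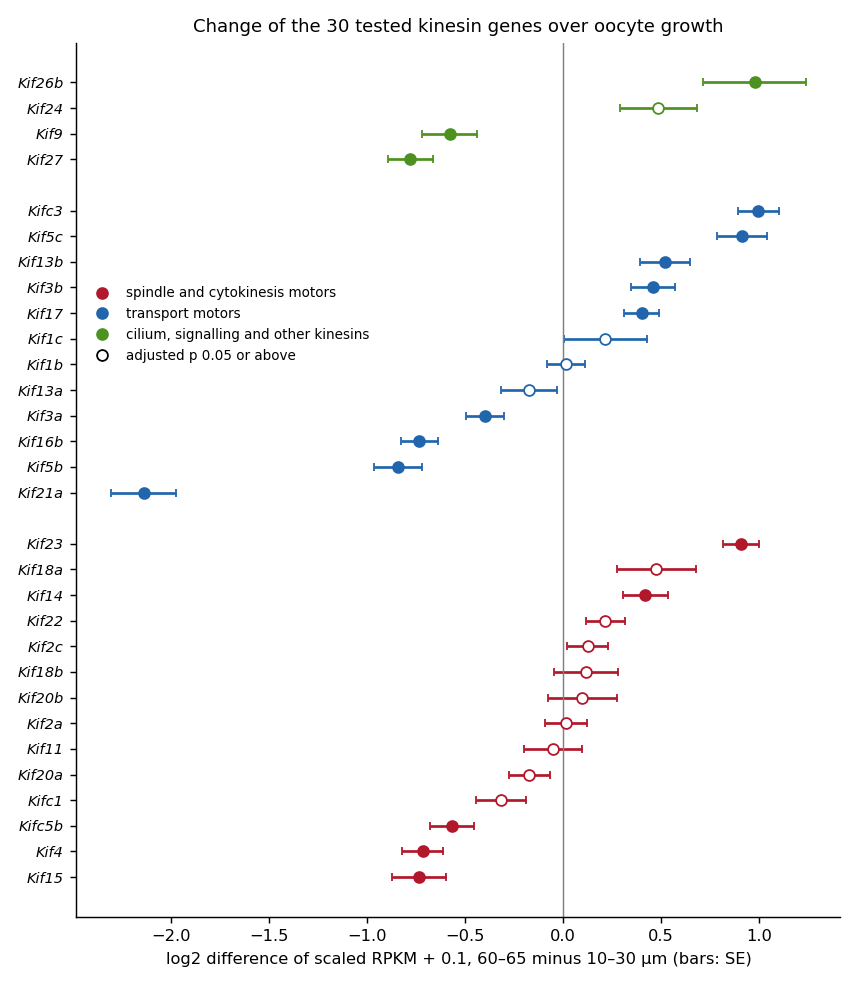
Log2 difference of scaled RPKM (with 0.1 added) between 60–65 and 10–30 μm oocytes for the 30 tested kinesin genes, by group, with bars of 1 SE from the limma fit. Filled points passed the adjusted threshold of 0.05. Values run from -2.14 for Kif21a to 0.99 for Kifc3, and points lie on either side of 0 in each group.

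Kif4, a chromosome-bound motor of the central spindle (chrX:100625737-100727214, + strand), was the highest kinesin of growing oocytes and declined over growth. It stood at 66.9 and 69.9 RPKM at 10–30 μm, 61.3 and 66.6 RPKM at 40–45 μm, 53.0 and 56.3 RPKM at 50–55 μm, 38.1 and 44.2 RPKM at 60–65 μm and 35.8 RPKM in GV oocytes. Both 60–65 μm libraries lay below all 6 libraries of smaller oocytes. Kif4 fell by 0.72 ± 0.11 on the log2 scale (SE, n = 2 per class, limma adjusted p = 0.000527), a 1.64-fold lower level. Its gene overlaps Pdzd11 on the opposite strand, which stood at 14.4 RPKM on average, and although the libraries were strand-specific, the counting is not stated to use strand, so it is not known whether reads of the overlap were kept apart. The pseudogene Kif4-ps, with 31 to 182 reads per library, stood at 0.0823 to 0.274 RPKM and shared no stretch of 100 bases, the read length, with the annotated transcripts of Kif4.

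Kif23, the motor subunit of centralspindlin (chr9:61917280-61946799, - strand), moved the other way. It stood at 19.6 and 20.9 RPKM at 10–30 μm, 28.1 and 29.0 RPKM at 40–45 μm, 34.6 and 37.5 RPKM at 50–55 μm, 36.6 and 38.4 RPKM at 60–65 μm and 43.4 RPKM in GV oocytes. The 10–30 and 40–45 μm libraries were apart from each other and from all larger oocytes, whereas the 50–55 and 60–65 μm classes overlapped. Kif23 rose 1.88-fold (log2 difference 0.91 ± 0.09 SE, n = 2 per class, limma adjusted p = 7.16e-05). Its partner in centralspindlin, Racgap1, stood at 3.55 and 4.42 RPKM at 10–30 μm and 5.10 and 4.89 RPKM at 60–65 μm, 1.27-fold higher (limma adjusted p = 0.037). Within a library, the ratio of Kif4 to Kif23 went from 3.42 and 3.34 at 10–30 μm to 2.18 and 2.29, then 1.53 and 1.5, and 1.04 and 1.15 at 60–65 μm, and was 0.824 in GV oocytes. No scaling of libraries enters this ratio, and no class overlapped another.

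**Figure D2:**
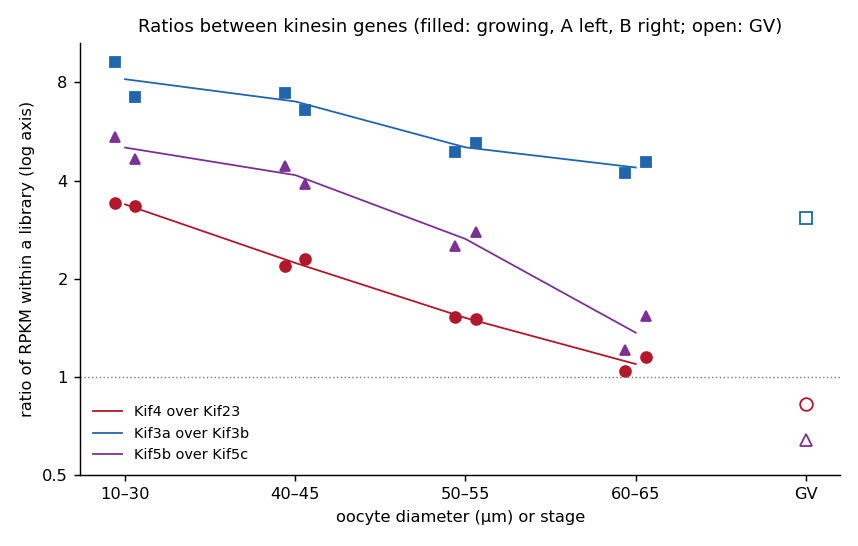
Ratio of RPKM values within each library (log axis) for Kif4 over Kif23, Kif3a over Kif3b and Kif5b over Kif5c by oocyte diameter in μm, with A and B side by side, lines through their geometric means and open symbols for the GV library. The 3 ratios were highest at 10–30 μm and lowest in GV oocytes, where 2 of them were below 1.

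The other spindle motors that passed the test were low or moderate. Kif14, a midbody motor, stood at 6.95 and 8.45 RPKM at 10–30 μm, 7.85 and 8.42 RPKM at 40–45 μm, 9.02 and 9.74 RPKM at 50–55 μm, 11 and 9.33 RPKM at 60–65 μm and 13.2 RPKM in GV oocytes. It rose 1.34-fold (limma adjusted p = 0.0128), and it lost the call without either replicate A of 10–30 μm (adjusted p = 0.0636) or replicate A of 60–65 μm (0.109). Kif15, a motor that works beside Kif11 in spindle assembly, stood at 0.986 and 1.04, 0.807 and 0.762, 0.631 and 0.678, and 0.488 and 0.637 RPKM in the 4 classes and at 0.552 RPKM in GV oocytes. It fell by 0.73 on the log2 scale (limma adjusted p = 0.00187), on 247 to 793 reads per library of growing oocytes. Kifc5b, a close relative of the minus-end-directed Kifc1, stood at 5.03 and 4.93, 4.45 and 4.49, 3.27 and 3.96, and 3.42 and 3.15 RPKM in the 4 classes and at 2.07 RPKM in GV oocytes, and fell by 0.57 on the log2 scale (limma adjusted p = 0.00283). Kifc1 itself stood at 19.07 and 20.02 RPKM at 10–30 μm, 21.2 and 20.8 RPKM at 40–45 μm, 15.2 and 17.8 RPKM at 50–55 μm, 17.2 and 13.9 RPKM at 60–65 μm and 10.9 RPKM in GV oocytes. All 4 libraries of the larger classes lay below all 4 of the smaller ones, and the difference over growth just missed the threshold (log2 difference -0.32 ± 0.13, limma adjusted p = 0.0544), which it passed with edgeR (0.0384) and without replicate A of 60–65 μm (0.0349). The values of Kifc1 and Kifc5b are uncertain, as 17% of the 100-base stretches of Kifc1 transcripts and 16.6% of those of Kifc5b occur in the other.

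Several spindle motors at high or moderate levels did not pass the test. Kif11, which pushes the spindle poles apart, stood at 15.2 and 13.1, 16.2 and 13.3, 16.2 and 14.6, and 12.6 and 14.2 RPKM in the 4 classes and at 11.7 RPKM in GV oocytes, with a log2 difference of -0.05 ± 0.15 (limma adjusted p = 0.78). Kif2c, which takes microtubule ends apart at centromeres, stood at 18.6 and 16.6, 17.8 and 18.6, 19.7 and 18.9, and 18.5 and 19.2 RPKM and at 18.1 RPKM in GV oocytes, with a difference of 0.12 ± 0.10 (0.313). Kif22, a chromosome arm motor, stood at 19.8 and 21.8, 19 and 22.6, 21 and 21.6, and 24.9 and 22.7 RPKM and at 26.1 RPKM in GV oocytes, with a difference of 0.21 ± 0.10 (0.0926). In none of these 3 genes did the classes follow a steady order. The cytokinesis motor Kif20a stood at 16.1 and 14.2, 13.1 and 14.3, 13.4 and 13.6, and 13.2 and 13.3 RPKM and at 14 RPKM in GV oocytes, with a difference of -0.17 ± 0.11 (0.18), and passed only without replicate B of 10–30 μm (0.0281). Kif18a, which limits chromosome movement at metaphase, stood at 1.996 and 1.64, 2.26 and 1.54, 2.44 and 1.95, and 2.56 and 2.47 RPKM and at 2.94 RPKM in GV oocytes, with a difference of 0.47 ± 0.20 (0.0702), and passed without replicate A of 10–30 μm (0.0489) and without either 40–45 μm library (0.0274 and 0.0271). Kif18b, Kif20b and Kif2a, at 1.71 to 9.07 RPKM, differed by 0.01 to 0.11 on the log2 scale. Kif2b had 1 read in 1 of the 9 libraries, at 0.00241 RPKM, and 0 in the others.

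Among the transport motors, Kifc3, a minus-end-directed motor (chr8:95099832-95142540, - strand), had the largest rise. It stood at 4.97 and 6.23 RPKM at 10–30 μm, 7.22 and 7.21 RPKM at 40–45 μm, 9.30 and 9.19 RPKM at 50–55 μm, 11.2 and 10.8 RPKM at 60–65 μm and 11.04 RPKM in GV oocytes. Its 4 classes did not overlap, and the rise was 1.99-fold (log2 difference 0.99 ± 0.10 SE, limma adjusted p = 9.07e-05). Kif17, a homodimeric motor of the kinesin-2 family, was the highest transport motor, at 15.6 and 17 RPKM at 10–30 μm, 20.6 and 22.4 RPKM at 40–45 μm, 21.8 and 21.5 RPKM at 50–55 μm, 20.6 and 21.9 RPKM at 60–65 μm and 18.6 RPKM in GV oocytes. The 3 larger classes overlapped each other and lay above the smallest. Kif17 rose 1.32-fold over growth (limma adjusted p = 0.00443).

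Kif21a (chr15:90933276-91049948, - strand), a motor that restrains microtubule growth at the cell cortex, had the largest log2 difference among the 30 tested members. It stood at 0.928 and 0.745 RPKM at 10–30 μm, 0.301 and 0.284 RPKM at 40–45 μm, 0.1405 and 0.173 RPKM at 50–55 μm, 0.0911 and 0.125 RPKM at 60–65 μm and 0.0771 RPKM in GV oocytes. These values rest on 597 and 767 reads at 10–30 μm and on 62 and 146 reads at 60–65 μm, and no class overlapped the next. Kif21a fell by 2.14 ± 0.17 on the log2 scale (SE, limma adjusted p = 2.18e-05), a 4.4-fold lower level on the log2(RPKM + 0.1) scale, which understates the change of a gene this low. Kif21b, its nearest relative, was below the threshold for testing at 0.152 to 0.374 RPKM in growing oocytes. Kif16b, a motor of early endosomes, stood at 8.1 and 8.84, 5.68 and 6.68, 5.72 and 5.83, and 4.88 and 5.08 RPKM in the 4 classes and at 4.74 RPKM in GV oocytes, and fell by 0.73 ± 0.10 on the log2 scale (limma adjusted p = 0.000273). Kif13b, a carrier of membrane cargo, stood at 3.94 and 5.39, 5.05 and 5.61, 6.06 and 6.41, and 6.76 and 6.36 RPKM and at 6.18 RPKM in GV oocytes and rose over growth (1.43-fold, limma adjusted p = 0.00783, and 0.0547 without replicate A of 60–65 μm).

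**Figure D3:**
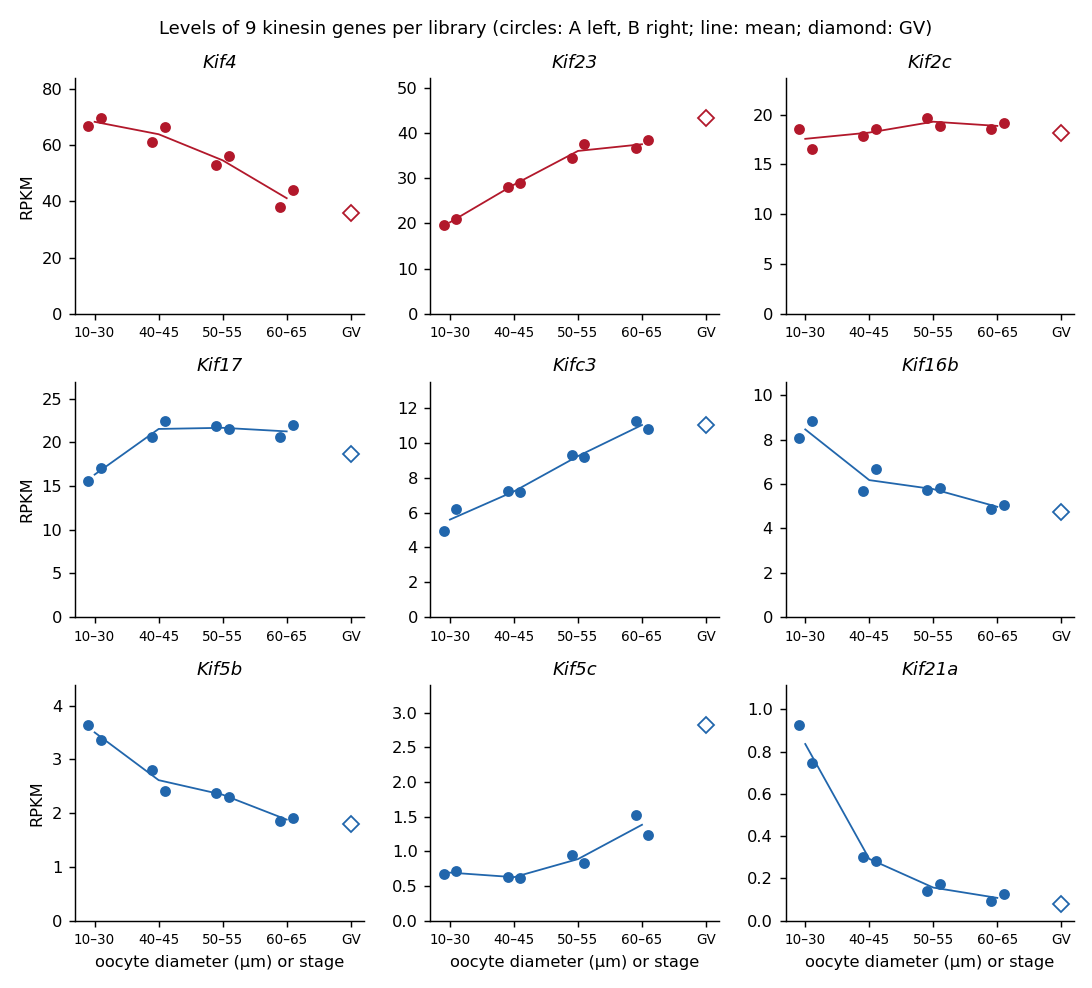
RPKM of 9 kinesin genes (spindle motors in red, transport motors in blue) by oocyte diameter in μm, with 1 circle per library, a line through the class means and a diamond for the single GV library, on axes that start at 0. Kif4, Kif16b, Kif5b and Kif21a declined, Kif23, Kifc3 and Kif5c increased, Kif17 increased between the first 2 classes, and Kif2c stayed between 16.6 and 19.7 RPKM.

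Members of the same motor family moved in opposite directions. In conventional kinesin (kinesin-1), the widely expressed heavy chain Kif5b fell and the heavy chain Kif5c, best known from neurons, rose. Kif5b stood at 3.65 and 3.36 RPKM at 10–30 μm, 2.81 and 2.42 RPKM at 40–45 μm, 2.38 and 2.30 RPKM at 50–55 μm, 1.85 and 1.92 RPKM at 60–65 μm and 1.80 RPKM in GV oocytes, and fell by 0.84 ± 0.12 on the log2 scale (limma adjusted p = 0.000448). Kif5c stood at 0.668 and 0.719, 0.636 and 0.619, 0.946 and 0.831, and 1.52 and 1.24 RPKM in the 4 classes and at 2.83 RPKM in GV oocytes, and rose 1.88-fold (log2 difference 0.91 ± 0.13, limma adjusted p = 0.00038). The ratio of Kif5b to Kif5c thus went from 5.46 and 4.67 at 10–30 μm to 1.21 and 1.54 at 60–65 μm and 0.639 in GV oocytes, where Kif5c was the higher of the pair. The third heavy chain, Kif5a, stood at 0.00302 to 0.0189 RPKM. Of the light chains, which link kinesin-1 to its cargo, Klc1 rose 1.34-fold (limma adjusted p = 0.00624), Klc3 fell by 0.41 on the log2 scale (0.00862), and Klc2 and Klc4 did not pass the test (0.307 and 0.753).

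In heterotrimeric kinesin-2, the motor subunit Kif3a and the cargo adaptor Kifap3 fell and the motor subunit Kif3b rose. Kif3a stood at 8.99 and 8.403 RPKM at 10–30 μm, 7.38 and 7.45 RPKM at 40–45 μm, 6.74 and 7.09 RPKM at 50–55 μm 6.596 and 6.37 RPKM at 60–65 μm and 5.66 RPKM in GV oocytes, and fell by 0.40 ± 0.10 on the log2 scale (limma adjusted p = 0.00669). Kif3b stood at 0.970 and 1.16, 0.996 and 1.13, 1.38 and 1.36, and 1.56 and 1.397 RPKM and at 1.84 RPKM in GV oocytes and rose 1.38-fold (limma adjusted p = 0.00706, and 0.0587 without replicate A of 60–65 μm). Kifap3 stood at 5.82 and 6.62 RPKM at 10–30 μm, 2.72 and 3.69 RPKM at 40–45 μm, 1.71 and 1.94 RPKM at 50–55 μm, 0.856 and 1.21 RPKM at 60–65 μm and 0.734 RPKM in GV oocytes, a fall of 2.47 ± 0.18 on the log2 scale (limma adjusted p = 1.66e-05). Kif3a exceeded Kif3b by 9.27 and 7.23 times at 10–30 μm and by 4.22 and 4.56 times at 60–65 μm, and it exceeded Kifap3 by 1.54 and 1.27 times and then by 7.71 and 5.26 times. Kif3c, the alternative partner of Kif3a, stood at 0.0739 to 0.133 RPKM.

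The remaining transport motors did not pass the test or did not reach it. Kif1b, a carrier of mitochondria and vesicles, stood at 1.46 and 1.61, 1.31 and 1.38, 1.44 and 1.43, and 1.59 and 1.46 RPKM and at 1.8 RPKM in GV oocytes, with a log2 difference of 0.01 ± 0.10 (limma adjusted p = 0.905). Kif1c and Kif13a stood at 0.616 to 1.37 RPKM in growing oocytes, with differences of 0.21 ± 0.21 and -0.17 ± 0.14. Kifc2 was below the threshold for testing at 0.115 to 0.312 RPKM. Kif1a, a carrier of synaptic vesicle precursors, was near 0, at 0.00561 to 0.0180 RPKM on 6 to 27 reads.

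In the third group, Kif26b rose and Kif27 and Kif9 fell. Kif26b, a kinesin-like signalling protein, stood at 0.331 and 0.696, 0.759 and 1.11, 0.949 and 1.2, and 1.03 and 1.05 RPKM in the 4 classes and at 0.805 RPKM in GV oocytes. It was 1.97-fold higher at 60–65 than at 10–30 μm (limma adjusted p = 0.0112), and it lost the call without replicate A of 10–30 μm (0.0511), whose value was the lowest, or without either 60–65 μm library (0.0503 and 0.0532). Kif27, a relative of the Hedgehog pathway regulator Kif7, stood at 0.735 and 0.702, 0.582 and 0.563, 0.446 and 0.448, and 0.369 and 0.372 RPKM and at 0.339 RPKM in GV oocytes, with no overlap of classes, and fell by 0.78 ± 0.11 on the log2 scale (limma adjusted p = 0.000506). Kif9 stood at 2.17 and 1.7, 1.3 and 1.27, 1.23 and 1.17, and 1.22 and 1.25 RPKM and at 1.34 RPKM in GV oocytes, and fell by 0.58 ± 0.14 (limma adjusted p = 0.00684). Kif24, a centriolar regulator of cilium formation, stood at 1.85 and 2.87 RPKM and then 3.22 and 3.23 RPKM, a difference of 0.48 ± 0.20 (0.0574). Kif26a was below the threshold for testing at 0.105 to 0.362 RPKM. Kif6, Kif7, Kif12 and Kif19a, which include motors of motile cilia, stood at 0 to 0.0282 RPKM on at most 27 reads.

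The counts of kinesins called in a single step declined from the first step to the last, as did the shares of all genes called. Between 10–30 and 40–45 μm, 6 of 30 kinesins differed, against 23.9% of all genes. Kif23 (1.54-fold, limma adjusted p = 0.00301), Kif17 (1.44-fold, 0.0053), Kifc3 (1.41-fold, 0.0128) and Kif26b (1.88-fold, 0.0385) rose, and Kif21a (by 1.15 on the log2 scale, 0.00291) and Kif16b (by 0.33, 0.04) fell. Without replicate A of 40–45 μm the count was 3. Between 40–45 and 50–55 μm, 1 of 30, Kif21a, differed (a fall of 0.65 on the log2 scale, limma adjusted p = 0.0475), against 9.19% of all genes, and the count was 0 without either library of 40–45, 50–55 or 60–65 μm and 2 without either library of 10–30 μm. Between 50–55 and 60–65 μm limma called 0 of 30 kinesins and 0% of all genes, with edgeR on the recovered reads also calling 0. At an unadjusted p under 0.05 limma counted 5 kinesins and 1485 of all genes in this step, and edgeR counted 1418. Kif4 had the lowest limma adjusted p of the kinesins in this step (0.137, for a fall of 0.47 on the log2 scale), followed by Kif5c (0.16, for a difference of 0.53). Over the 4 classes, the class means of 6 of the 30 tested kinesins increased at every step and those of 9 decreased at every step, against 29.9% and 28.1% of all genes tested.

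The single GV library was compared with the 60–65 μm class by size only, without a test. Of the 30 tested kinesins, 1 was past 2-fold and outside both 60–65 μm libraries, against 0.656% of all genes. This was Kif5c, at 2.83 RPKM in GV oocytes against 1.52 and 1.24 RPKM, a 2.03-fold higher level. At 3-fold there was none. Kif2a was next among rises at 2.60 RPKM against 1.88 and 1.87 RPKM (1.4-fold), and Kifc5b had the largest fall, at 2.07 RPKM against 3.42 and 3.15 RPKM. For both Kif4 and Kif23 the GV value lay beyond the 60–65 μm libraries in the direction of the change over growth.

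The partners of the kinesins, from lists made by role, moved in several directions over growth and are given beside the 32.4% of all genes called higher and the 30.9% called lower. Of 14 tested light chains, adaptors and the spindle motor Cenpe, whose symbol lies outside the rule, 5 rose, 4 fell and 5 did not pass the test, with a median log2 difference of 0.20. The mitochondrial adaptors Trak1 and Trak2 rose 1.59-fold and 1.51-fold (limma adjusted p = 0.0117 and 0.00205), Cenpe rose 1.33-fold (0.012), and the adaptors Spag9 and Fez2 fell by 0.54 and 0.60 on the log2 scale (0.00375 and 0.00064). Of 27 tested genes of spindle assembly, the midzone and the chromosomal passenger complex, 10 rose, 5 fell and 12 did not pass the test, with a median of 0.12. The kinase Aurkc, the germ cell member of its family, rose 1.83-fold (limma adjusted p = 0.000887), whereas Aurkb fell by 0.87 (0.000269), the midzone bundler Prc1 by 0.34 (0.0426) and Ran, the GTPase that directs spindle assembly around chromatin, by 1.11 (4.64e-05). Of 22 tested subunits and regulators of dynein, the motor that moves against most kinesins, and its activator dynactin, 1 rose, 11 fell and 10 did not pass the test, with a median of -0.39. The heavy chain Dync1h1 stood at 6.04 and 8.30 RPKM at 10–30 μm and 3.66 and 3.46 RPKM at 60–65 μm, and the adaptor Bicd2 was the gene that rose, from 4.19 and 5.54 to 8.10 and 7.44 RPKM. Of the 10 proliferation markers, which include cyclins that growing oocytes also store, 5 rose and 2 fell.

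In oocytes DNA methylation is laid down during growth and mainly over transcribed gene bodies, while CpG-rich starts stay largely free of it, and the methylation of the kinesin genes was therefore described beside their levels. A gene body is the gene without the 1000 bp next to its start, a start region the 500 bp on either side of the start given in the table, and a value the mean percent methylated over CpG cytosines that 5 or more reads covered. At 60–65 μm by PBAT, 40 kinesin gene bodies had a median of 45.2%, with a range of 6.13 to 70.5%, against 27.6% over 17457 gene bodies of the table. The median was 50.7% for the 30 kinesins with a test of expression and 9.98% for 10 without one, against 48.4% and 9.16% for all genes of these kinds. The spindle group had a median of 53.6% (14 genes, none below 22.4%) and the transport group one of 32.3% (17 genes, 4 of them under 10%). The gap of 21.3 percentage points between these medians was 6.26 points when 1 read per position was enough and 13.7 points with at least 10 reads. All 14 spindle genes had a test of expression, whereas 5 of the 17 transport genes had none. The bodies of those 5 stood at 6.13% (Kif5a), 6.49% (Kif1a), 12.7% (Kif3c), 26.5% (Kif21b) and 58.5% (Kifc2). How far this difference in make-up enters the gap was not tested.

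**Figure D4:**
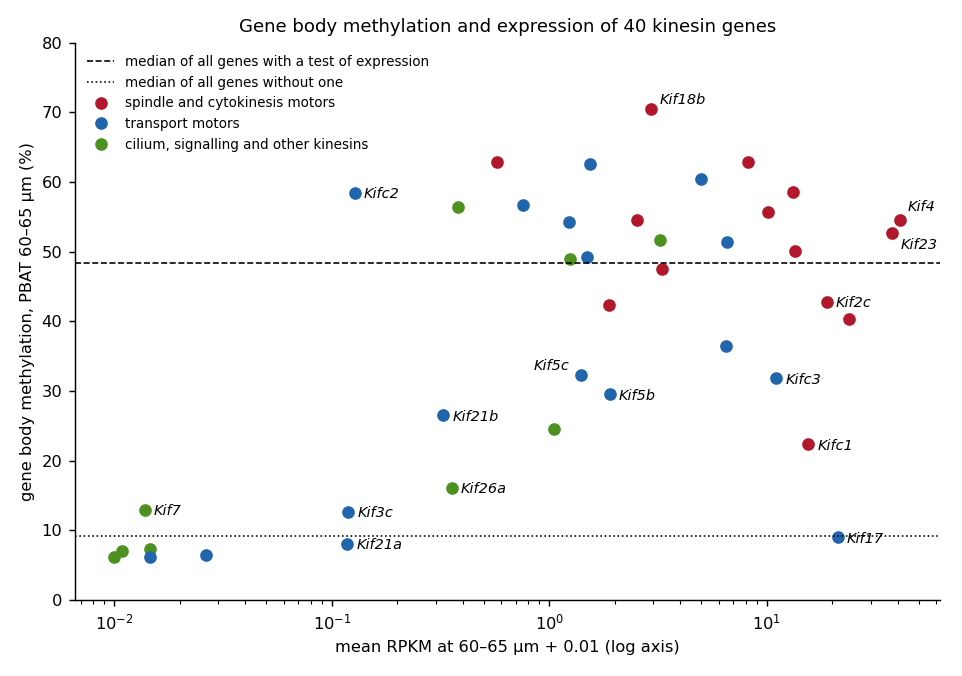
Gene body methylation in the 60–65 μm PBAT library (percent) against mean RPKM at 60–65 μm (log axis, with 0.01 added) for 40 kinesin genes, coloured by group, with the medians of all genes with (dashed) and without (dotted) a test of expression. Kif17 lies at 8.99% beside 21.2 RPKM, and Kifc2 at 58.5% beside 0.117 RPKM.

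Several kinesins departed from the median of their kind. Kif17, the fourth highest member by level, had a gene body methylation of 8.99% over 545 positions, with 8.70% of its 3954 calls methylated (95% Wilson interval 7.86 to 9.62%). Along its span from 5′ to 3′, methylation was 7.73, 3.56, 6.63 and 7.96% in the first 4 of 5 equal segments and 39.7% in the last. The RefSeq start of Kif17 lies 11816 bp downstream of the table start, inside this body, and its window holds 31 CpG. The Kif17 body also overlaps Sh2d5 on the same strand, which stood at 0.139 RPKM. Kif21a, which was low in large oocytes, had a body at 8.11% over 236 positions, near Kif1a at 6.49% and Kif5a at 6.13%, which had hardly any reads. Kifc1, at 15.5 RPKM in the same class, had a body at 22.4%. In the opposite corner, Kifc2 had a body at 58.5% over 88 positions with a level of 0.117 RPKM. The intervals cover counting error only, since the PBAT library has no replicate.

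**Figure D5:**
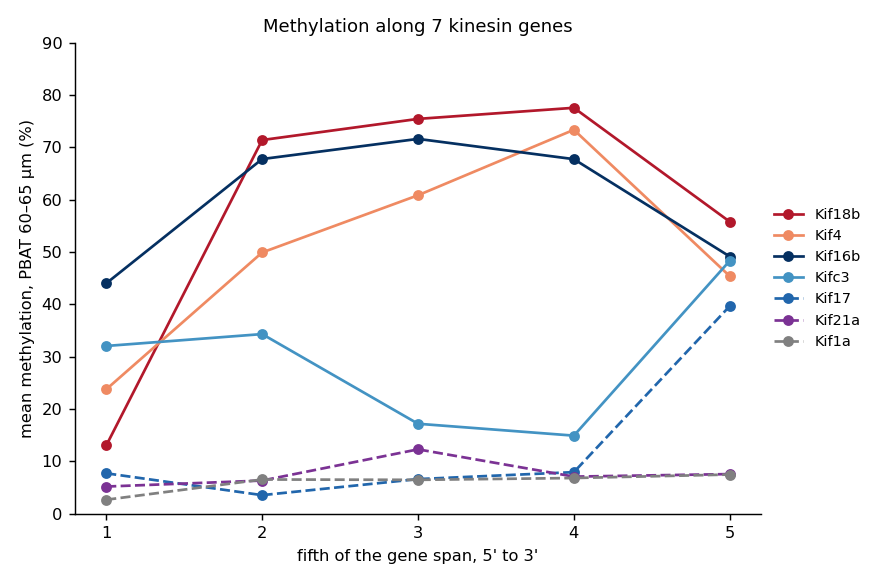
Mean methylation in the 60–65 μm PBAT library (percent) in 5 equal segments of the gene span of 7 kinesin genes, ordered 5′ to 3′. Kif18b, Kif4 and Kif16b were lowest in the first segment, Kif17 was at 39.7% in the last segment and at most 7.96% before it, and Kif21a and Kif1a stayed at or below 12.3% throughout.

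Of 39 kinesin start regions with a value in the PBAT library, 37 were under 10% and the median was 2.93%, against 88.2% of start regions under 10% and a median of 3.46% over all genes. At Kif4, 0 of 155 calls were methylated, which allows a share of up to 1.94% taking 3 calls of the total as the limit, or 2.42% as the upper end of the 95% Wilson interval, and at Kif23 1.17% of 598 calls were methylated (95% Wilson interval 0.568 to 2.40%). Kif27, Kif5b and Kif4-ps had no value under the minimum of 5 reads. On positions with 1 read or more, 69.2% of 13 calls were methylated at the start of Kif27 (95% Wilson interval 42.4 to 87.3%), whose first segment of 5 along the gene stood at 59.4% over 26 positions. Among the 39, the 2 start regions with a mean above 10% were those of Kif2b, at 10.2% over 14 positions with 8.86% of 158 calls methylated (95% Wilson interval 5.35 to 14.3%), and of Kifc3, at 34.8%. The Kifc3 start region had 35.5% of 823 calls methylated (95% Wilson interval 32.3 to 38.8%), and in the RRBS libraries it went from 1.93 and 2.72% at 40–45 μm over 8.6 and 9.69% to 21.3 and 30.4% at 60–65 μm. No 2 classes overlapped at this start. The mean level of Kifc3 increased over the same classes, but neither step passed the test (limma adjusted p = 0.0984 and 0.456). Kifc3 has no RefSeq window, so its table start was not compared with a RefSeq start. The Kifc3 body stood at 31.8% in the PBAT library.

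The RRBS libraries gave 20 kinesin gene bodies a value in both 40–45 and both 60–65 μm libraries. In 14 of them both 60–65 μm libraries lay above both 40–45 μm libraries, against 66.1% of 6061 genes, and in 1, Kif1a, they lay below. No model was fitted to these values, and with 2 libraries against 2 an exact permutation test cannot go below a two-sided p of 0.333. The gain was largest at Kif16b, from 2.74 and 14.4% at 40–45 μm over 25.8 and 40.6% at 50–55 μm to 52.5 and 66.9% at 60–65 μm. Kif3b went from 3.43 and 2.46% over 25.2 and 43.6% to 47.9 and 47.4% on 11 to 14 positions per library, and Kif13a from 4.42 and 2.75% over 24.4 and 21.9% to 39.9 and 46.2%. As a share of all calls in place of the mean over positions, the values were 3.7 and 3.86%, 28.4 and 29.1%, and 57 and 57.9% for Kif16b, and 3.53 and 1.42%, 16.9 and 14.1%, and 31.9 and 26.8% for Kif3b. By that measure the last class again lay above the first in 14 of the 20. Kif17 moved from 0.438 and 0.953% over 2.64 and 2.60% to 1.66 and 2.02%, and Kif21a from 1.97 and 0.794% to 0.505 and 1.53%, with the libraries of the first and last class overlapping for Kif21a. Kif5c, whose RNA increased, reached 11.98 and 13.5%, and Kifc2, whose RNA was below the threshold for testing, reached 39.2 and 43.9%. Over the 11 bodies of kinesins with a test of expression the median gain was 39.5 percentage points, and over the 9 without one it was 1.48, or 26.9 and 0.764 points as a share of calls. Over all 20 kinesins it was 9.97 points and over all 6061 genes 4.82, or 11.6 and 4.35 points as a share of calls.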

How the data were processed

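RNA-seq and bisulphite libraries of mouse oocytes sorted by diameter were used. The authors trimmed RNA reads, aligned them to GRCm38 with TopHat2 2.0.9 keeping 1 alignment per read, and deposited RPKM per gene. The study's methods name Cufflinks for the expression of transcripts and SeqMonk for RNA-seq analysis. Which program made this table is not given in the sources used here. For RRBS and PBAT the authors aligned with Bismark and deposited the percent methylated and the counts of methylated and unmethylated calls per CpG cytosine, with replicates not pooled. Duplicate removal is stated for PBAT only.

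Values were scaled by a trimmed mean (factors 0.932 to 1.07) and tested as log2(RPKM + 0.1) with limma 3.58.1 in 1 fit over 8 libraries. On simulated data for 10–30 against 60–65 μm over 10518 genes, 149 of 200 2-fold changes were called and 7 unchanged genes. Whole reads (99.4 to 100% of low single-exon values whole within 0.05) fed edgeR 4.0.16. Named in full are members passing the whole-growth test, the 5 highest, and 12 fixed ones; all others appear by range. Members and lists were chosen with earlier results of these data known. Methylation needed 10 positions per gene body of at least 4000 bp, and 5 per start region. Samples of 2 per class limit precision. R 4.3.3 and Python 3.11.15 were used.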

Additional observations from a re-analysis of the deposited data

How the results depend on the processing

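With limma, the counts of kinesins over the whole of growth (8 higher, 9 lower) were 5 and 5 when 2 RPKM was required in 2 libraries. The count for the 4 classes was then 11 in place of 18. That filter left fewer genes tested, 7235, of which 2456 passed as higher and 2128 as lower. Leaving out 1 library at a time, which leaves 1 library in a class, changed the counts of kinesins called in every comparison but the last step. The counts of all genes called higher and lower over growth changed too. The difference between the spindle and transport medians moved within -0.261 to 0.085. The count of kinesins that rose was lowest without replicate A of 60–65 μm. For 10–30 to 40–45 μm (6), fitting only the 2 classes compared gave 3. The count of 1 for 40–45 to 50–55 μm was 0 with either other pseudocount, without a filter, with the stricter filter, with median-ratio scaling and with only these 2 classes; the cause was not tested. At 3-fold 0 kinesins were past the limit in GV oocytes. The median gene body methylation of 45.2% was 40.8% with at least 10 reads per position, where 33 genes remained, and the gap between spindle and transport medians (21.3 points) was 6.26 with 1 read and 13.7 with 10, settings added for this gap after seeing the data. For single genes, 459 comparisons with an alternative kept the side of the threshold or, for methylation, stayed within the counting interval. With another read minimum, 42 gene body methylation values moved beyond that interval. Of the calls, 13 were gained and 7 were lost. No difference that passed in either fit changed sign, and changes of sign where neither fit passed were not counted.

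The A minus B differences correlated at 0.590 to 0.669 among the 3 smaller classes and at -0.226 to 0.113 between these and 60–65 μm. As not every pair was above 0.1 and no label ties the letters to animals or days, the letters were not taken to pair the samples. A replicate block gave 10 higher, 10 lower, 20 for the 4 classes, 8, 3 and 1 for the steps, and with edgeR 4 and 2 for the last 2 steps. Over all 10518 genes the block called 3714 higher and 3579 lower over growth, against 3410 and 3249 without it. In the last step it called 228 of all genes, against 0 without it, and 287 of 10517 with edgeR. With the block, limma adjusted p was 0.00788 for Kif24, 0.0111 for Kif18a and 0.0465 for Kifc1 over growth and 0.044 for Kif4 in the last step, against 0.0574, 0.0702, 0.0544 and 0.137 in the fit of all 8 libraries without it. edgeR without the block, chosen after seeing the data, gave 8 higher and 10 lower, against 3244 and 3381 of 10517 genes. Genes low in reads, such as Kif21a in large oocytes, are limited by depth.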
